A study of Homo sapiens with 8 samples.

Results

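LM2, a derivative of the triple-negative breast cancer line MDA-MB-231 that the labels call highly metastatic, was profiled with and without added miR-126. Total RNA from LM2 cells labelled as over-expressing miR-126 (arrays A and B) and from LM2 cells labelled as control (arrays A and B) was measured on Affymetrix arrays, 2 arrays for each group. These are 4 of the 8 arrays of the study, taken by their titles, and the other 4 (MDA-MB-231 and LM2 on Illumina arrays) entered no comparison here. All cells were grown in DMEM with fetal bovine serum, and the labels give neither the vector that carried the microRNA or its control nor any clone, passage or time. Nothing in them ties A and B of a group to separate cultures, so the p-values below reflect array-to-array spread that may be technical. All genes with a single symbol were described, 19775 in all, of which 12923 lay above the median level of all probe sets and were tested.

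MicroRNAs are short RNAs that guide Argonaute proteins to matching sites, mostly in the 3' untranslated regions of messenger RNAs, where they lower translation and RNA level. Bases 2 to 8 of the microRNA, the seed, set most of that matching. miR-126 is best known in the endothelium, where it is processed from an intron of EGFL7 and tempers the inhibitors of VEGF signalling, and in this breast cancer line it has been described as a suppressor of metastasis acting through IGFBP2, PITPNC1 and MERTK. Its mature arms are shown here because over-expression of miR-126 is what the labels give as the difference between the groups. The seed is in capitals. Both arms are from RefSeq (GRCh38.p14), at chr9:136670653-136670674 and chr9:136670616-136670636 on the plus strand.
hsa-miR-126-3p: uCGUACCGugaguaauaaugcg
hsa-miR-126-5p: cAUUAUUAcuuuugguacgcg
The arms have different seeds. No probe set carries the symbol of the microRNA gene, so its level was not checked on these arrays.

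Most listed genes of the amino acid stress response stood lower in miR-126 cells on each of the 2 arrays. Asparagine synthetase (ASNS), the cystathionine-cleaving enzyme CTH, the stress transcription factors DDIT3 and ATF3, the pseudokinase TRIB3 and the stress cytokine GDF15 all stood lower on both miR-126 arrays than on both control arrays. ID3, which blocks DNA binding by helix-loop-helix proteins, and FGF13, an intracellular member of the fibroblast growth factor family, stood higher on both. The control mean of FGF13 lay below the median level of all probe sets, so it was tested only because the miR-126 arrays were high. Most hypoxia-induced genes lay below the control mean on array A and above it on array B, and the medians of some other groups, inflammatory genes among them, differed in sign between the arrays. No gene passed the test: limma with Benjamini-Hochberg adjustment called 0 of 12923 genes (0%) at an adjusted p under 0.05, and the smallest adjusted p was 0.446. At an unadjusted p under 0.05, 572 genes (4.43%) were lower and 436 (3.37%) higher. What follows therefore gives the levels on each array, as log2 values relative to the array's median, and not called changes.

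The miR-126 arrays were far less alike than the control arrays. Averaged over the tested genes, the absolute difference between miR-126 arrays A and B was 0.284 log2, that between the control arrays 0.0870 log2, and that between the means of the groups 0.159 log2. At least 1.5-fold from the control mean, 441 genes were lower and 312 higher on array A, and 318 lower and 238 higher on array B. On both arrays together, 63 genes (0.488%) were at least 1.5-fold lower and 29 (0.224%) at least 1.5-fold higher. Another 27 were lower on A and higher on B, and 12 were higher on A and lower on B, while 8 genes differed as much between the control arrays. Both miR-126 arrays lay below both control arrays for 2447 genes (18.9%) and above both for 2768 (21.4%).

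Array A also differed in some control probe sets that entered no test. On the deposited linear scale, where the array median is 1, the 3 probe sets for the small-subunit ribosomal RNA read 4.774, 3.382 and 3.066 on miR-126 array A and 1.325, 0.719 and 0.747 on miR-126 array B, against 0.56 to 1.218 on the control arrays. A probe set for the large-subunit ribosomal RNA read 20.68 on miR-126 array A and 8.547 on array B, against 6.681 and 8.315 on the control arrays. The other 2 for that RNA read 14.82 and 1.919 on miR-126 array A and 10.71 and 2.406 on miR-126 array B, against 9.584 and 1.912 on control A and 9.501 and 1.663 on control B, so the last of them was highest on miR-126 array B. The control probe sets for GAPDH read 163 to 177.9 on the miR-126 arrays and 163.6 to 178.6 on the control arrays. The part of the ribosomal RNA signal in what sets array A apart was not tested.

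Markers of the labelled cell type were read on all 4 arrays. VIM, CD44, MSN, CAV1 and AXL, markers of the mesenchymal type of triple-negative cell, lay between 5.71 and 7.51 on the miR-126 arrays and between 5.70 and 7.55 on the control arrays, all above 3.94, the level that 90% of genes stay under. FN1 and SNAI2, the other markers of that list, lay between 2.92 and 6.57. Of the markers of other cell types, 5 of 7 luminal, 4 of 7 endothelial, 3 of 5 blood and 4 of 8 fibroblast genes also lay above the filter. The luminal ones were ESR1, ERBB2, EPCAM, KRT18 and GATA3, and the others included PECAM1, HBB and COL1A1. ESR1 and ERBB2 are receptor genes that the triple-negative label concerns. A level above the filter is not a call of presence. Those below the filter were PGR and CDH1 (luminal), CDH5, KDR and CLDN5 (endothelial), PTPRC and LYZ (blood), and COL3A1, LUM, PDGFRA and PDGFRB (fibroblast).

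The 10 lower genes of smallest p whose groups did not overlap included 5 stress genes. ASNS, which makes asparagine, stood at 3.17 and 2.99 on miR-126 arrays A and B, against 4.32 and 4.31 on the controls (difference -1.24, SE 0.12, adjusted p = 0.446 by limma). A second ASNS probe set, below the filter, differed by -0.02 on array A and 0.00 on array B, and with the mean of both the ASNS log2 difference was -0.62. CTH, which releases cysteine from cystathionine, stood at 1.76 and 1.52 on the miR-126 arrays, against 2.77 and 2.98. In ASNS and CTH the groups lay further apart than the arrays of either group. DDIT3, known as CHOP, stood at 2.54 and 2.38 on the miR-126 arrays, against 3.59 and 3.63 on the controls. TRIB3, which DDIT3 and ATF4 induce, stood at 2.45 and 2.47, against 3.39 and 3.36. NUPR1, a stress-induced nuclear protein, stood at 1.09 and 1.58, against 2.81 and 2.97. All 3 were lower on both arrays, and none passed the test (adjusted p = 0.466 for each by limma).

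PEBP1, an inhibitor of RAF kinase, stood at 5.28 and 5.30 on the miR-126 arrays, against 5.98 and 6.01 on the controls. Its 3 probe sets were all lower on both arrays. DUSP5, a nuclear ERK phosphatase, stood at 3.81 and 3.76 on the miR-126 arrays, against 4.55 and 4.58. CST6, the secreted protease inhibitor cystatin M, stood at 1.66 and 1.55, against 2.65 and 2.57. RBCK1, a subunit of the linear ubiquitin ligase, stood at 3.28 and 3.34, against 4.21 and 4.20. RARA was read at 0.49 and 1.18 on the miR-126 arrays, against 2.61 and 2.70 on the controls, but by 1 probe set only. The other 2 RARA probe sets above the filter differed by 0.04 and 0.23 on array A and by 0.19 and -0.15 on array B. The RARA value therefore belongs to that probe set and not to the gene as a whole.

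Among the 10 higher genes of smallest p, ID3 stood at 2.58 and 2.87 on the miR-126 arrays, against 0.54 and 0.04 on the controls (difference 2.44, SE 0.22, adjusted p = 0.446 by limma). FGF13 stood at 1.34 and 1.07, against -0.15 and -0.26. Both genes were near or below the array median in control cells and clearly above it in miR-126 cells. The control mean of FGF13, -0.21, lay below the filter level of -0.0003. FGF13 was therefore tested only because the miR-126 arrays were high. The long non-coding TPT1-AS1 stood at 0.93 and 0.96 on the miR-126 arrays, against -0.02 and 0.01. The F-box protein FBXO5, which restrains the anaphase-promoting complex, stood at 4.02 and 4.02, against 3.30 and 3.36. The mean difference was 0.82 for the nucleic acid binding protein FUBP3, 0.79 for ZC3H12C and 0.80 for CDC42SE1, a small effector of CDC42. It was 0.86 for the peptide hormone UCN2, 0.70 for ZDBF2 and 0.87 for RPLP2, a ribosomal stalk protein. RPLP2 stood at only 0.97 and 0.90 on the miR-126 arrays, against 0.20 and -0.06 on the controls. Only 1 of its 2 probe sets lay above the filter, and with their mean RPLP2 was not tested. UCN2 stood at -0.11 and 0.13 on the controls. The control means of TPT1-AS1 (-0.0051) and ZDBF2 (-0.07) lay below the filter level. These genes too were tested only because the miR-126 arrays were high. Other probe sets did not repeat the value for FUBP3, where a second one differed by 0.01 on array A and -0.36 on array B, or for 1 of the 3 CDC42SE1 probe sets above the filter (0.21 and -0.15).

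**Figure D1:**
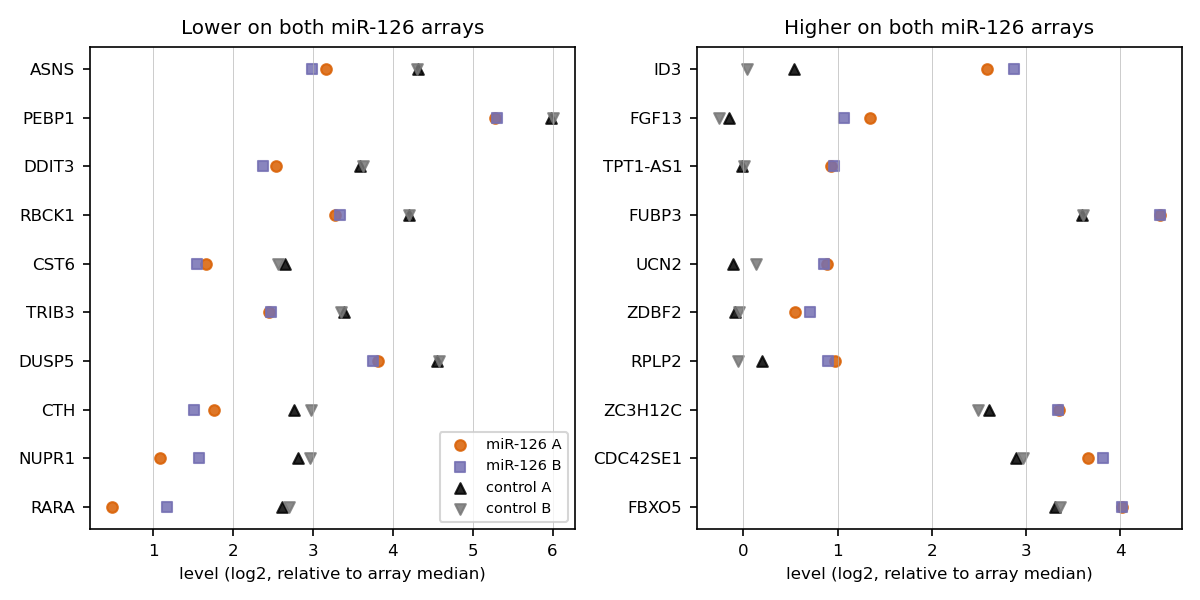
Levels of the 10 lower and 10 higher genes of smallest p on each array (log2, relative to the array median), with miR-126 arrays A and B as circle and square and control arrays A and B as triangles. ASNS lies near 3 on the miR-126 arrays and near 4.3 on the controls, and ID3 between 2.58 and 2.87 on the miR-126 arrays and between 0.04 and 0.54 on the controls.

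When amino acids run short or the endoplasmic reticulum is overloaded, kinases phosphorylate the initiation factor eIF2 and the transcription factor ATF4 is translated. ATF4 then raises genes that make, import and charge amino acids, through a composite C/EBP-ATF element in their promoters. Of 18 regulators of this axis that were tested, 17 stood lower than the control mean on array A and 15 on array B, and 14 lay below both control arrays on both. None lay above. Over all tested genes 18.9% lay below both controls on both arrays and 21.4% above, the shares to set beside this and the next counts. The list median was -0.50 on array A and -0.66 on array B, against 0.01 and 0.02 over all genes tested. These lists were drawn up with earlier results of the same arrays known, so their direction is a description and no independent support.

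Among the regulators GDF15 had the widest gap, at 0.81 and 1.53 on the miR-126 arrays, against 3.02 and 3.42 on the controls (adjusted p = 0.466 by limma). Its 2 other probe sets lay below the filter and differed by -0.15 to 0.13. CHAC1, which degrades glutathione, stood at 1.23 and 1.13 on the miR-126 arrays, which lay 0.78 and 0.88 below the control mean. ATF3 stood at 1.29 and 1.28, against 2.16 and 2.42. ATF4 itself, which is controlled mainly at translation, stood at 5.20 and 5.30, against 5.58 and 5.59. The exceptions lay on opposite sides of the controls on the 2 arrays: DDIT4, an inhibitor of mTORC1, stood at 4.66 on array A and 6.21 on array B, against 5.92 and 5.99 on the controls. ATF5 was 0.59 higher on array A and 0.35 lower on array B than the control mean.

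Enzymes that make amino acids followed in part. PHGDH, which commits glycolytic carbon to serine, stood at 2.78 and 2.96 on the miR-126 arrays, against 3.63 and 3.49 on the controls. SHMT2, which turns serine into glycine in mitochondria, stood at 5.28 and 5.03, against 5.81 and 5.71. PSAT1, the second serine enzyme, stood at 5.07 and 4.42, against 5.44 and 5.38. Of 8 serine, glycine and one-carbon enzymes tested, 4 lay below both controls on both arrays and 1 above. The one above was TYMS, thymidylate synthase (0.37 and 0.16 above the control mean). Among 8 enzymes of asparagine, proline, alanine and cysteine, 4 lay below and 1 above. The proline enzyme PYCR1 was 0.34 lower on array A and 0.46 lower on array B.

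Among 12 amino acid transporters, 7 lay below both controls on both arrays and 1 above. SLC6A9, a glycine transporter, had the smallest p, at -0.25 and 0.16 on the miR-126 arrays, against 0.76 and 0.96 on the controls. SLC7A5, the large neutral amino acid carrier and also a published miR-126 target, stood at 4.18 and 3.39 on the miR-126 arrays, against 4.91 and 4.74 on the controls. Its partner chain SLC3A2 stood at 4.04 and 3.23, against 4.34 and 4.40. SLC7A11, the cystine importer, stood at 4.26 and 3.19, against 4.40 and 4.38. In SLC7A5, SLC3A2 and SLC7A11 the gap was wider on array B. Of 17 cytosolic aminoacyl-tRNA synthetases, 7 lay below and 2 above, and the list median was 0.07 on array A but -0.20 on array B. WARS1, for tryptophan, had the smallest p among them, at 3.62 and 3.38 on the miR-126 arrays, against 4.26 and 4.27 on the controls. AARS1 and SARS1, for alanine and serine, were 0.46 and 0.36 lower on array A and 0.71 and 0.63 lower on array B.

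The 5 lists together hold 63 tested genes. Of these, 36 (57.1%) lay below both control arrays on both miR-126 arrays and 5 (7.94%) above, where 18.9% and 21.4% of all tested genes did so. Taken alone, array A put 41 of the 63 below both controls (65.1%, against 40.8% of all genes) and array B put 48 there (76.2%, against 39.9%). At least 1.5-fold on both arrays, 13 stood lower (20.6%, against 0.488% of all genes) and 0 higher (0%, against 0.224%). The share of all genes that stood higher is so small that the 0 says nothing of these genes. Of the 63 genes of all kinds that stood that far lower, 13 were on these lists. Above both controls lay 20 on array A (31.7%, against 43.8% of all genes) and 10 on array B (15.9%, against 46.1%). Each array taken alone thus held more low genes here than among all genes, but not all 63 were low. Both arrays were set against the same 2 controls and the lists were drawn up with these data known. The arrays are therefore no independent support for each other.

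**Figure D2:**
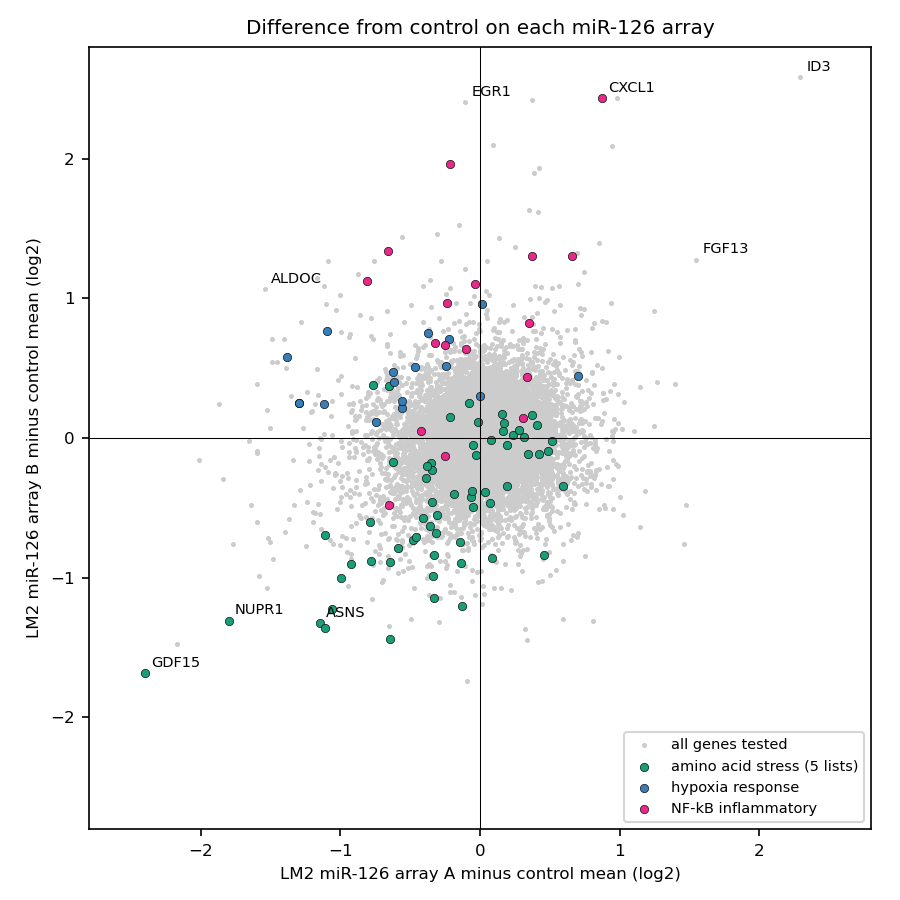
Each tested gene's difference from the control mean on miR-126 array A (x, log2) and array B (y, log2), with 3 groups of genes coloured. The amino acid stress genes reach into the lower left, where both arrays are low, while most hypoxia genes lie in the upper left and NF-kB genes reach higher on array B than on array A. Both axes subtract the same control mean, so a part of any shared slope comes from the controls.

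The promoters of ASNS and CHAC1 are shown because these genes were low on both arrays and their promoters hold the C/EBP-ATF element, searched as TGATGNAA on both strands. HSPA5, the main chaperone of the endoplasmic reticulum, is shown for the ER stress element, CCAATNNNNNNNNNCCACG, also searched on both strands. Each sequence is the 300 bases around the gene's start in RefSeq (GRCh38.p14), with the match in capitals. They lie at chr7:97872359-97872658 (minus strand), chr15:40953221-40953520 (plus strand) and chr9:125241294-125241593 (minus strand).
ASNS: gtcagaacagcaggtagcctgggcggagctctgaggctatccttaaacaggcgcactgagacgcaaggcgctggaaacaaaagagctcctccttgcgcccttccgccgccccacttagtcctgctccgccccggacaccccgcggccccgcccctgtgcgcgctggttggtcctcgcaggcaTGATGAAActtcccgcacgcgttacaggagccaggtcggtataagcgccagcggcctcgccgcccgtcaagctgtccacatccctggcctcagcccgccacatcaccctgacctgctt
CHAC1: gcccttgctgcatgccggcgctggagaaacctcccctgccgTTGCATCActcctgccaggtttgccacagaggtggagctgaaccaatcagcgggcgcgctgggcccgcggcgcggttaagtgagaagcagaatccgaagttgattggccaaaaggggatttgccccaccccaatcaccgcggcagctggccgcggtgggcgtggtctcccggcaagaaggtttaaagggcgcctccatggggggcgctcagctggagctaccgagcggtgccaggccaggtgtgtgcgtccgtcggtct
HSPA5: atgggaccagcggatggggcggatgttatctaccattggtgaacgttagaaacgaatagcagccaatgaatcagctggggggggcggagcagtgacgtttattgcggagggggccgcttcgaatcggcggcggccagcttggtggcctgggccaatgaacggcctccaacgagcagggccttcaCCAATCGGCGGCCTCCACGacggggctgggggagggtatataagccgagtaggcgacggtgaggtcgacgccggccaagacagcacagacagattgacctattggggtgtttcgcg
The C/EBP-ATF letters occur in 1003 of 27305 RefSeq promoters (3.67%). Among the listed genes with a promoter in the table they occur in 3 of 18 regulators, 1 of 8 serine and one-carbon enzymes, 3 of 7 other amino acid enzymes, 3 of 11 transporters and 6 of 16 synthetases. Of the 10 lower genes of smallest p, 7 had a promoter there, and the letters occur in 1 of them, ASNS. The letters occur in 0 of the 10 higher genes of smallest p. They are also present in genes that did not stand below both controls on both arrays, such as BCAT1, SLC7A1 and NARS1. The ER stress element occurs in 22 promoters in all (0.0806%) and in 6 of 19 genes of the unfolded protein response. A match is a description of the letters and says nothing of binding.

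The unfolded protein response raises chaperones and degradation factors of the endoplasmic reticulum. Of 19 such genes, 13 lay below both controls on both arrays and 1 above, where 18.9% and 21.4% of all tested genes did so, with medians of -0.18 on array A and -0.08 on array B. HSPA5 stood at 5.91 and 6.18 on the miR-126 arrays, against 6.70 and 6.81 on the controls. HERPUD1, a degradation factor, stood at 3.76 and 4.36, against 5.30 and 5.39. HYOU1, a large chaperone, stood at 4.74 and 4.45, against 5.32 and 5.30. CALR, CANX and PDIA6, abundant folding factors, differed from the control mean by -0.18 to -0.02.

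Sterol and fatty acid genes stood low mainly on array A. SREBP transcription factors drive these genes when membranes lack sterol. Of 19 genes of cholesterol synthesis and uptake, 12 lay below both controls on both arrays and none above (where 18.9% and 21.4% of all tested genes did so), but the median was -0.71 on array A and -0.21 on array B. FDPS, a prenyl-diphosphate synthase, stood at 4.52 and 4.71 on the miR-126 arrays, against 5.22 and 5.23 on the controls. EBP and NSDHL, later enzymes of the pathway, were 0.45 and 0.43 lower on array A and 0.36 and 0.49 lower on array B. MSMO1, a sterol demethylating oxidase, stood at 3.68 on array A and 4.75 on array B, against 4.91 and 4.90. INSIG1, which retains SREBP in the endoplasmic reticulum, was 0.67 lower on array A and 0.42 higher on array B. Of 10 fatty acid genes, 7 lay below both controls and none above. FASN, fatty acid synthase, stood at 3.37 and 3.72 on the miR-126 arrays, against 4.55 and 4.34. ACLY, which makes cytosolic acetyl-CoA, was 0.20 lower on array A and 0.24 lower on array B. SCD, the stearoyl-CoA desaturase, stood at 3.77 on array A but 5.63 on array B, against 5.84 and 5.73. Its mean difference of -1.08 (SE 0.60, adjusted p = 0.716 by limma) rests on array A.

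**Figure D3:**
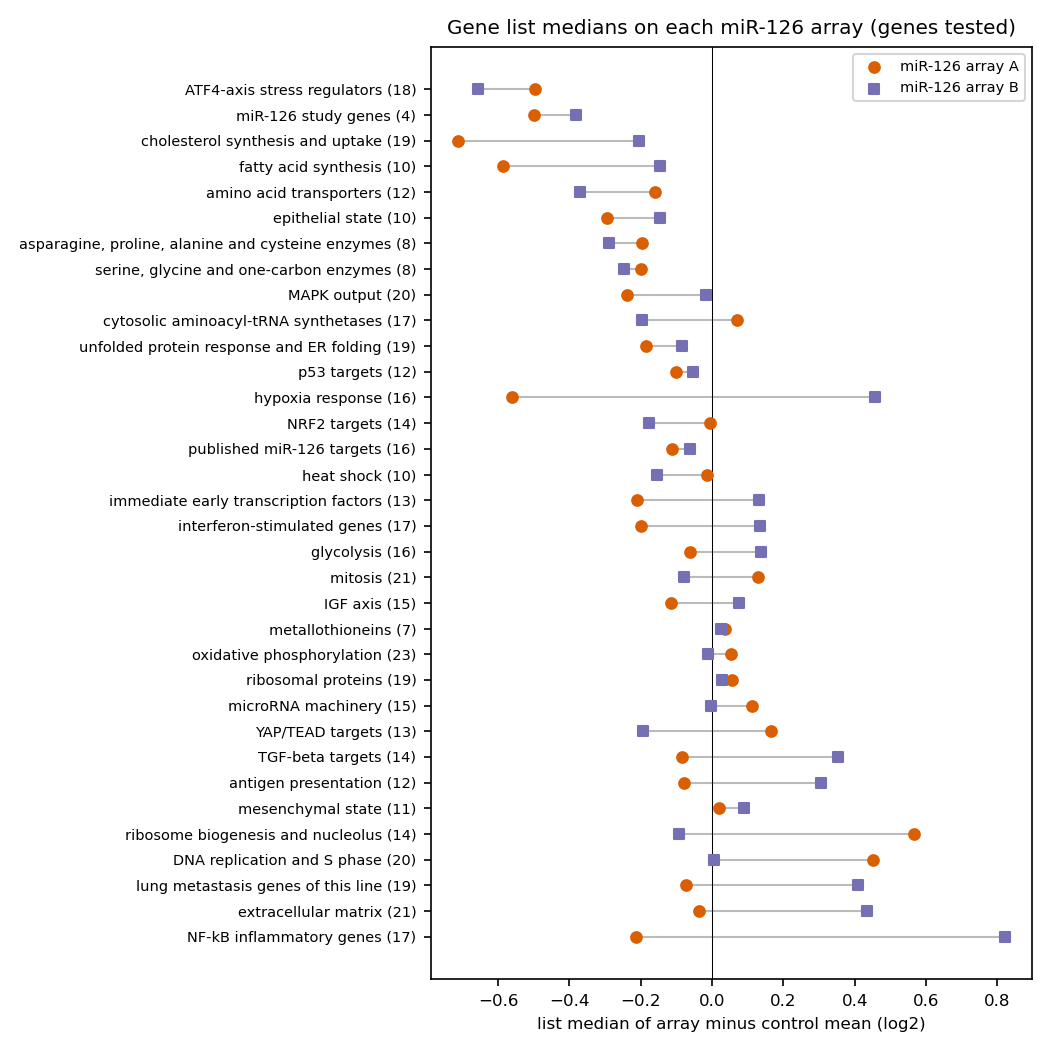
Median difference from the control mean of the tested genes of each list (log2), with miR-126 array A as circles, array B as squares and the number of genes tested in brackets. The ATF4-axis regulators lie at -0.50 and -0.66, close together, while hypoxia genes lie at -0.56 and 0.46.

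The hypoxia response, driven by HIF transcription factors, put the 2 miR-126 arrays on opposite sides of the controls. Of 16 genes, 14 stood lower than the control mean on array A and all 16 stood higher on array B, with medians of -0.56 and 0.46. Over all 12923 tested genes, 6294 stood lower on array A and 6895 higher on array B. NDRG1, a hypoxia-induced growth regulator, stood at 4.04 on array A and 5.40 on array B, against 5.12 and 5.19 on the controls. Only ADM, the vasodilator peptide adrenomedullin, lay above both controls on both arrays, by 0.70 and 0.44 over their mean. None of the 16 lay below both, where 21.4% of all tested genes lay above and 18.9% below. EGLN3, the prolyl hydroxylase that HIF induces, differed by 0.01 on A and 0.96 on B, and ANGPTL4, a lipase inhibitor, by -0.75 and 0.11. ALDOC, a glycolytic aldolase, had the largest excess of array B over array A among all tested genes, at 1.17 on A and 3.78 on B, against 2.64 and 2.79 on the controls. The list median of the mean difference was -0.09, which shows nothing of the split.

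Inflammatory genes stood high on array B. The median of 17 NF-kB genes was -0.21 on array A and 0.82 on array B; 6 lay above both controls on both arrays and 2 below, where 21.4% and 18.9% of all tested genes did so. CXCL8, a neutrophil chemokine, stood at 4.17 on array A and 6.34 on array B, against 4.17 and 4.59 on the controls. IL6 stood at 2.86 and 4.80, against 3.63 and 3.72. CXCL1, a related chemokine that has been tied to metastasis of this line, stood high on both, at 4.16 and 5.72, against 3.23 and 3.34. CSF3, the granulocyte colony-stimulating factor, was also above both controls on both arrays (0.65 and 1.31 above the control mean), and the cytokine IL1A below both (0.65 and 0.48 lower). EGR1, an immediate early transcription factor, stood at 2.99 on array A and 5.50 on array B, against 2.96 and 3.23. TNFSF10, the death ligand TRAIL, and NR4A2, an orphan nuclear receptor, were 1.09 and 1.17 lower on array A and 1.27 and 1.15 higher on array B. Matrix genes leaned the same way, with a median over 21 genes of -0.04 on array A and 0.43 on array B. Of these 21, 10 lay above both controls on both arrays and 2 below, where 21.4% and 18.9% of all tested genes did so. Thrombospondin THBS1 and the basement membrane collagen COL4A1 stood above both controls on both arrays, by 0.99 and 0.58 for THBS1 and by 0.52 and 0.78 for COL4A1.

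Growth genes stood high on array A. All 14 tested genes of ribosome biogenesis stood above the control mean on array A, with a median of 0.57, and 11 stood below it on array B, with a median of -0.09. WDR43, a nucleolar processing factor, stood at 2.90 on array A and 2.12 on array B, against 1.68 and 1.83 on the controls. All 20 genes of DNA replication stood above the control mean on array A (median 0.45) and 10 on array B (median 0.01). Of the 20, 8 lay above both controls on both arrays and 0 below, where 21.4% and 18.9% of all tested genes did so. MCM6, a subunit of the replicative helicase, was 0.48 higher on A and 0.30 higher on B. CCNE2, a cyclin of the G1/S transition, stood at 4.37 and 3.78, against 3.43 and 3.45. MMP1, an interstitial collagenase, stood at 5.71 on array A and 3.93 on array B, against 4.54 and 4.60. ADAMTS6, a secreted protease, had the largest excess of array A over array B among all tested genes, at 1.33 and -0.90, against -0.18 and -0.09. Its control mean of -0.13 and its value on array B lay below the filter level of -0.0003. ADAMTS6 was therefore tested only because miR-126 array A was high. The RNA polymerase III subunit POLR3G stood at 2.23 on array A and 0.27 on array B, against 0.71 and 0.79.

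The remaining genes with the largest gaps between the miR-126 arrays were ITGA1, KLF9 and SORBS2, which stood higher on B, and ST6GALNAC5, DCLK1, OXTR, NEXN and GTF2H2B, which stood higher on A. ST6GALNAC5, a sialyltransferase, stood at 1.12 on array A and -0.99 on array B, against 0.37 and 0.26 on the controls. ITGA1, an integrin chain that binds collagen, stood at 0.44 on A and 2.65 on B, against 1.60 and 1.51. KLF9, a glucocorticoid-responsive transcription factor, stood at -0.37 on A and 1.82 on B, against 1.06 and 1.17.

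**Figure D4:**
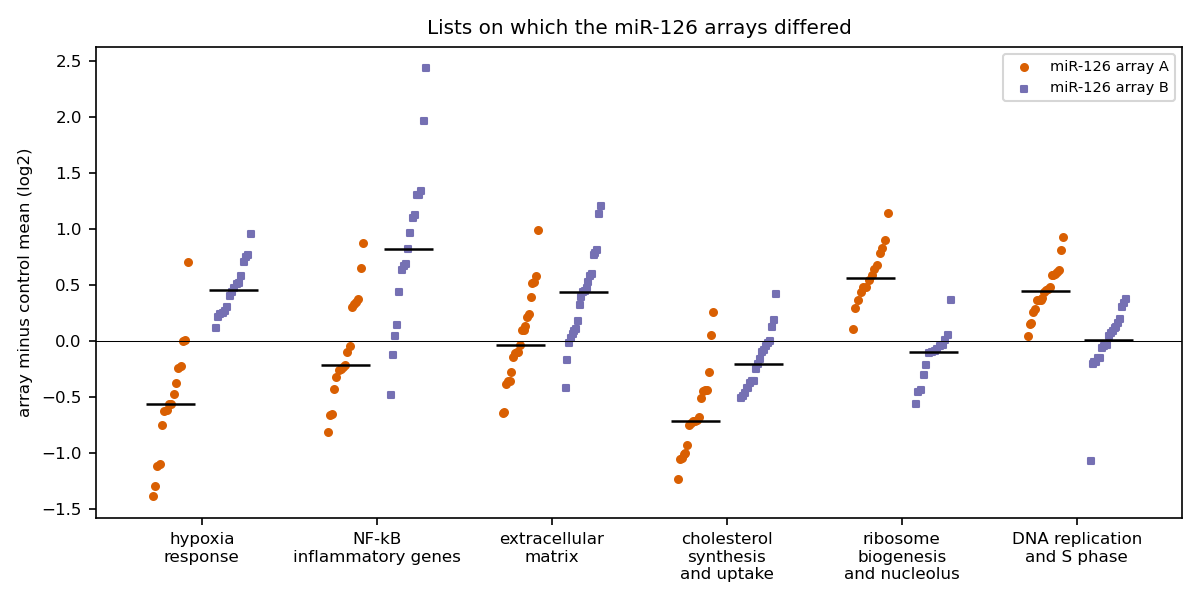
Difference from the control mean (log2) of each tested member of 6 gene lists, with miR-126 array A as circles, array B as squares and the median as a bar. Hypoxia and NF-kB genes lie lower on array A than on array B, and ribosome biogenesis and DNA replication genes lie higher on array A.

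The genes through which miR-126 is reported to act in this line stood low without passing the test. IGFBP2, a secreted binding protein for insulin-like growth factors, stood at 0.35 and 0.95 on the miR-126 arrays, against 1.57 and 1.52 on the controls (difference -0.90, SE 0.22, adjusted p = 0.486 by limma). MERTK, a receptor tyrosine kinase, stood at 1.42 and 1.25, against 1.97 and 1.99 (difference -0.64, SE 0.13, adjusted p = 0.483 by limma). Its second probe set above the filter was 0.73 lower on array A and 1.03 lower on array B. PITPNC1, a phosphatidylinositol transfer protein, stood at 1.71 and 1.99, against 2.11 and 2.20 (difference -0.30, SE 0.15, adjusted p = 0.692 by limma). Its 3 other probe sets above the filter differed by -0.36, -0.54 and -1.41 on array A and by -0.08, 0.10 and -0.67 on array B. GAS6, a ligand of MERTK, stood at 4.24 and 4.27, against 4.43 and 4.36 (difference -0.14, SE 0.10, adjusted p = 0.740 by limma). All 4 lay below both controls on both arrays, as did 18.9% of all tested genes. Of the wider IGF axis, 4 of 15 tested genes lay below both controls on both arrays and 3 above, near the shares of all tested genes, and 10 lay above the control mean on array B. IGFBP1 stood at 4.14 and 3.86 on the miR-126 arrays, against 4.68 and 4.68 on the controls, and IGFBP4 at 4.99 and 5.49, against 5.93 and 5.70. IGFBP3 differed from the control mean by 0.14 on array A and -0.28 on array B, IGFBP6 by -0.55 and 0.22, and IGFBP7 by -0.29 and 0.37.

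Targets published in other settings did not share a direction. Of 18 listed targets in the table, 16 were tested, and CXCL12 and PTPN7 lay below the filter. On both arrays 5 lay below both controls and 2 above, where 18.9% and 21.4% of all tested genes did so, and the median was -0.11 on array A and -0.06 on array B. Besides SLC7A5, the 4 below were TOM1 (-0.25 and -0.19), RGS3 (-0.19 and -0.16), PTPN9 (-0.06 and -0.30) and TSC1 (-0.28 and -0.02), each as the difference from the control mean on arrays A and B. ADAM9, a membrane protease (0.18 and 0.19), and CADM1, an adhesion molecule (0.12 and 0.76), lay above. The endothelial targets SPRED1, an inhibitor of RAS signalling, and VCAM1, a leukocyte adhesion molecule, took opposite sides, with SPRED1 at -0.50 on A and 0.06 on B. VCAM1 stood at 1.26 on A and 3.26 on B, against 1.79 and 1.85 on the controls. DNMT1, PLK2, VEGFA, CRKL, LRP6, EGFL7 and IRS1 likewise had differences of opposite sign on the 2 arrays. EGFL7, the host gene, differed by 0.02 on A and -0.25 on B.

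**Figure D5:**
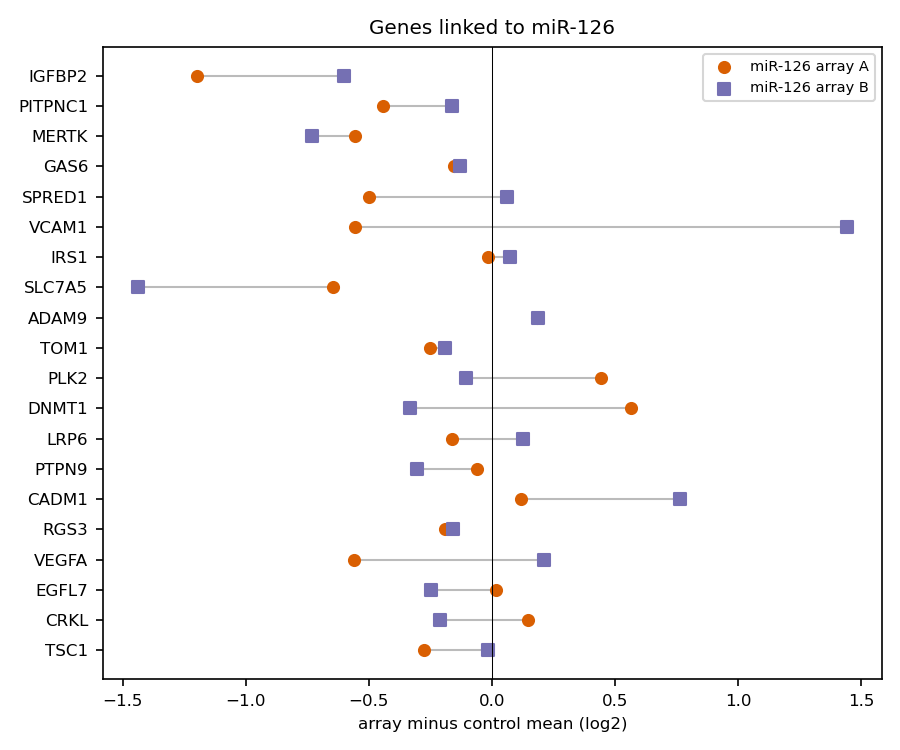
Difference from the control mean (log2) on miR-126 array A (circles) and array B (squares) for the 4 genes of the miR-126 pathway in this line and the 16 published targets that were tested. The first 4 lie left of 0 on both arrays, while VCAM1 lies at -0.56 and 1.44.

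Of the microRNA machinery, DICER1, which cuts precursors, stood at 2.45 and 2.44 on the miR-126 arrays, against 2.17 and 2.10 on the controls. TNRC6C, a silencing scaffold, was 0.49 and 1.30 lower, and AGO4, an Argonaute, 0.59 and 0.25 lower. AGO2, the slicing Argonaute, differed by 0.02 on array A and -0.52 on array B. Over 15 such genes 3 lay below both controls on both arrays and 4 above, shares near the 18.9% and 21.4% of all tested genes, with medians of 0.11 and 0.00.

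Beside ID3, the TGF-beta and BMP signalling genes ID1 and SKIL stood high on both arrays, but the list they belong to stayed near the shares of all tested genes. ID1, a relative of ID3 that has been tied to lung metastasis of this line, stood at 5.04 and 5.67 on the miR-126 arrays, against 4.33 and 4.36 on the controls. SKIL, a SMAD co-repressor, stood at 1.66 and 1.76, against 0.90 and 1.07. TGFB1, the ligand, differed by -0.59 and -0.43. Of 14 genes listed for this pathway 4 lay above both controls on both arrays, ID3 among them, and 2 below, where 21.4% and 18.9% of all tested genes did so. On array A 8 of the 14 lay below the control mean, and on array B 3. Among 19 genes tied to lung metastasis of the line, 6 lay above and 2 below, where 21.4% and 18.9% of all tested genes did so, with medians of -0.07 on array A and 0.41 on array B. IL13RA2, a decoy receptor, stood at 4.64 and 4.50, against 3.93 and 3.88.

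Of 20 genes induced by or feeding back on the ERK kinase pathway, 8 lay below both controls on both arrays and 1 above, where 18.9% and 21.4% of all tested genes did so. The medians were -0.24 on array A and -0.02 on array B, where 10 genes lay below the control mean and 10 above. FOSL1, an AP-1 subunit, was 0.52 lower on array A and 0.93 lower on array B, and SPRY4, a feedback inhibitor, 0.67 and 0.29 lower. DUSP6, the cytosolic ERK phosphatase, was 0.78 lower on A and 0.18 higher on B. Epithelial genes also stood low on array A, with KRT19, a keratin, at 2.98 and 3.98 on the miR-126 arrays, against 4.56 and 4.60 on the controls. Of 10 epithelial genes 6 lay below both controls and none above, where 18.9% and 21.4% of all tested genes did so.

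In the remaining lists members stood on both sides of the control mean on each array. Over 19 ribosomal protein genes the medians were 0.06 on array A and 0.03 on array B, and the widest difference was that of RPL8 on array A (0.26). Of these 19, 10 lay above both controls on both arrays and 1 below, where 21.4% and 18.9% of all tested genes did so. By the same measure 4 of 10 heat shock genes and 4 of 14 NRF2 targets lay below, and 0 of either list above. Over 23 genes of oxidative phosphorylation the medians were 0.05 and -0.01. Those of 7 genes of the metallothionein list were 0.04 and 0.02, of 12 p53 targets, GDF15 among them, -0.10 and -0.05, and of 10 heat shock genes -0.01 and -0.16. PLK3, a p53-induced kinase, was 0.31 and 0.43 lower, and HSPB1, a small heat shock protein, 0.53 and 0.38 lower. Mitosis genes had medians of 0.13 and -0.08 over 21 genes, the IGF axis -0.11 and 0.07 over 15, and 16 glycolysis genes -0.06 and 0.14. YAP/TEAD targets had medians of 0.17 and -0.19, NRF2 targets 0.00 and -0.18, and mesenchymal genes 0.02 and 0.09. SNAI2, a mesenchymal transcription factor, was 0.49 and 0.47 higher, and CCN2, a YAP/TEAD target, 0.53 and 0.34 higher. AKR1C1, an NRF2 target, was 0.95 and 0.29 lower. PKM, the pyruvate kinase, was 0.30 and 0.32 lower, while GPI, the phosphoglucose isomerase, was 0.41 and 0.43 higher. Interferon-stimulated genes had medians of -0.20 and 0.13, with 13 of 17 below the control mean on array A and 15 above it on array B. Antigen presentation genes had medians of -0.08 and 0.31, with 9 of 12 below it on array A and 11 above it on array B. Immediate early transcription factors had medians of -0.21 and 0.13, with 11 of 13 below it on array A and 9 above it on array B, EGR1 and NR4A2 among these.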

How the data were processed

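Biotin-labelled total RNA (mirVana extraction, per the labels' protocols) was hybridised to Affymetrix arrays. The intensity values deposited by the authors are linear and scaled so that each array's median is 1; the sources used here name neither software, summary method nor normalization. Without scanner files or detection calls no gene was called absent. Grouping followed the titles, and the Illumina table was not used.

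Of 54675 probe sets, 62 were controls; 41091 had 1 gene symbol in the platform annotation, 1801 several and 11721 none. Symbols were updated through Entrez identifiers (41037 matched, GRCh38.p14 RefSeq). Values were taken as log2 with no pseudocount and quantile normalized, since upper quartiles spanned 0.165 log2. The probe set with the highest mean stood for each of 19775 genes, and the 12923 genes whose mean exceeded the probe sets' median mean were tested.

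limma 3.58.1 in R 4.3.3 compared miR-126 with control arrays (lmFit, eBayes with trend, two-sided, Benjamini-Hochberg, threshold 0.05). With 2 arrays a group, the smallest p of an exact permutation test is 0.3333. The steps were tested on simulated data. Each miR-126 array was also set against the control mean, with no test, at 1.5-fold. Figures used matplotlib 3.10.9 in Python 3.11.15.

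The comparison and the gene lists were chosen with earlier results of these data known. Named by rule were the 10 genes of smallest p per direction with groups that did not overlap, the genes linked to miR-126, up to 3 members of smallest p per list, and the 8 genes with the largest gap between the miR-126 arrays each way. Other genes named were chosen after their values were seen. Alternatives covered scaling, pseudocount, filter, probe set rule, variance prior, the letters A and B as a block and each array left out; the counts on each miR-126 array alone were added after the data were seen. The number of arrays limits the precision. Sites for miR-126 in 3' untranslated regions were not analysed here.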

Additional observations from a re-analysis of the deposited data

Results flagged for a closer look

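Of 6 control probe sets for ribosomal RNA, which entered no comparison, 5 read higher on miR-126 array A than on any other array. The 3 for the small-subunit RNA read 4.774, 3.382 and 3.066 on miR-126 array A, on the linear scale with the array median at 1, and 1.325, 0.719 and 0.747 on miR-126 array B. The control arrays read 1.218, 0.582 and 0.56 (A) and 1.193, 0.63 and 0.67 (B). A probe set for the large-subunit RNA read 20.68 on miR-126 array A and 8.547 on miR-126 array B, against 6.681 and 8.315 on the control arrays. The other 2 for that RNA read 14.82 and 1.919 on miR-126 array A and 10.71 and 2.406 on miR-126 array B, against 9.584 and 1.912 on control A and 9.501 and 1.663 on control B, so the last of them was highest on miR-126 array B. The part of this signal in the values of array A was not tested.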

How the results depend on the processing

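The count of called genes stayed at 0 lower and 0 higher under the other scalings, pseudocount, filters, probe set rules and variance priors. With the replicate block, which rests on letters that the labels do not tie to a shared culture (same-letter deviations correlated at 0.06), limma called 13 genes lower and 7 higher. Leaving out each array in turn gave 0 to 2321 lower and 0 to 2549 higher: 2321 and 2275 without miR-126 array A, 2222 and 2549 without miR-126 array B, and 0 and 0 without either control array. With 1 miR-126 array left, the spread comes from the 2 control arrays alone and the lone array is assumed to vary like them. Without quantile normalization 539 genes were lower and 259 higher at an unadjusted p under 0.05, against 572 and 436. With the mean of a gene's probe sets, the RARA log2 difference was -0.35, the ASNS log2 difference -0.62, the CST6 log2 difference -0.54, the FUBP3 log2 difference 0.32, the ZC3H12C log2 difference 0.32 and the CDC42SE1 log2 difference 0.36. That setting gave an IRS1 log2 difference of -0.0465 and an LRP6 log2 difference of 0.0385, both with the sign turned. Leaving out arrays gave ranges of either sign for SPRED1 (-0.498 to 0.0626), VCAM1 (-0.557 to 1.44), IRS1 (-0.0174 to 0.0747), PLK2 (-0.106 to 0.443), DNMT1 (-0.331 to 0.563), LRP6 (-0.164 to 0.126), VEGFA (-0.562 to 0.212), EGFL7 (-0.247 to 0.017) and CRKL (-0.211 to 0.145). The synthetase median was 0.07 without miR-126 array B, and that of ATF4-axis regulators stayed between -0.66 and -0.44.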

Other observations

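Genes outside the lists were also at least 1.5-fold from the control mean on both miR-126 arrays; those named here were chosen after their values were seen, and none passed the test. Among the lower ones were PCK2, the mitochondrial phosphoenolpyruvate carboxykinase (0.77 lower on array A and 0.91 on array B), and GFPT1, which starts hexosamine synthesis (0.95 and 0.81 lower). MAP1LC3B, an autophagosome protein, was 0.91 and 0.72 lower, and RRAGC, a GTPase that signals amino acids to mTORC1, was 0.59 and 0.69 lower. Its relative RRAGB was 0.70 and 1.10 higher. ITGB4, an integrin chain, was 1.52 and 0.71 lower, THBD, the thrombin receptor thrombomodulin, 0.59 and 0.97 lower, and TNFSF4, the ligand OX40L, 0.66 and 0.93 lower.

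Among the higher ones, WNT5A, a secreted signalling protein, stood at 0.66 on miR-126 array A and 2.12 on array B, against -0.32 and -0.31 on the control arrays. Both control values lay below the filter level, so WNT5A was tested only because the miR-126 arrays were high. The complement component C3 stood at 2.41 and 3.56, against 1.55 and 1.38. The transcript listed as MIR146A, the precursor of a microRNA induced by NF-kB, stood at 1.02 and 1.56, against 0.13 and 0.19. IL11, a cytokine of the IL6 family, stood at 2.76 and 3.21, against 1.80 and 2.23. In WNT5A, C3, MIR146A and IL11 the value on array B was the higher of the 2 miR-126 values.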
